A study of Mus musculus with 12 samples.

Results

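The eicosanoid enzymes described here are the 10 genes chosen by name that encode the lipoxygenase and leukotriene arm (Alox15, Alox5, Alox5ap, Ltc4s and Lta4h) and the cyclooxygenase and prostanoid arm (Ptgs1, Ptgs2, Ptges, Tbxas1 and Hpgds) of arachidonic acid metabolism. They were represented by 15 of the 41174 probes of the array, and were 10 of 27670 genes. Hpgds stands in the scanner files under the older symbol Ptgds2. The samples were bone-marrow-derived macrophages of 2 inbred mouse strains, Balb/cAnNCrl (Balb/c) and C57BL6/J (C57BL6), grown in recombinant human CSF1 at 200 ng/ml, a growth factor that turns marrow cells into macrophages. Each strain gave 2 mock samples kept without cytokine for 18 h, 2 samples given 10 ng/ml of the cytokine IL-4 for 4 h and 2 given it for 18 h, from day 7 of culture. Both times are set against the 18 h mock, and no 4 h mock was used here. Marrow was pooled from several animals 8 to 12 weeks old, labelled as 2 males and 1 female for each sample, and the replicates are described as separate experiments on different littermates. The treatment text common to the samples also names LPS, which no sample is labelled as having received.

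Arachidonic acid, once freed from membrane phospholipid, is oxidised along competing routes. Arachidonate 5-lipoxygenase, presented with its substrate by the 5-lipoxygenase-activating protein, makes leukotriene A4, which Lta4h turns into the neutrophil attractant leukotriene B4 and Ltc4s into the cysteinyl leukotriene C4. The cyclooxygenases make prostaglandin H2, from which separate synthases make prostaglandin E2, prostaglandin D2 or thromboxane. In human monocytes IL-4 is a classical inducer of 15-lipoxygenase, and in mice the gene named Alox15 is best known from resident peritoneal macrophages.

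Of the 43379 spots on an array, 54.9% to 69.7% exceeded background clearly, and replicate arrays correlated at 0.974 to 0.989 over the tested genes. All 8 macrophage markers, among them Csf1r and Adgre1, were well above background on all 12 arrays. Arg1, a standard marker of IL-4-primed macrophages, was not well above background on any of the 4 mock arrays. With the scanner's processed signal it was at least 104-fold higher at 4 h and at least 1300-fold higher at 18 h over both strains, with the lowest signal well above background on each mock array in place of its own (limma adjusted p = 3.26e-05 and 4.96e-06). With normexp background correction the log2 change of Arg1 was 2.94 at 4 h, which did not pass (adjusted p = 0.115), and 6.54 at 18 h (adjusted p = 0.00218). Both are smaller than those bounds, which hold for the processed signal only. Retnla, another such marker, was above background on all IL-4 arrays and on 1 of 4 mock arrays, so the size of its change is uncertain. Over 20 other settings its log2 change ran from 4.49 to 10.24 at 4 h, not passing without slide 2 (adjusted p = 0.0788), and from 9.18 to 14.74 at 18 h. The 4 arrays of slide 2 stood apart on the component after strain and IL-4, which held 13.5% of the variance, with scores of 22.5 to 61.7 against -34 to 8 for the other arrays. A fit without them keeps 1 array in each Balb/c IL-4 group and in C57BL6 mock and 4 h. A call lost in that fit therefore does not show that the result depends on slide 2. Levels below are log2 intensities relative to the 75th percentile of the same array. Probes differ in brightness for reasons other than RNA amount, so no probe's level is set against another's. In these bulk samples, fewer cells of a type and less RNA per cell cannot be told apart, and p-values measure the spread between pooled cultures.

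With IL-4, members of the prostanoid arm changed in opposite directions. Ptgs1, the constitutive cyclooxygenase, rose 7-fold at 4 h and 8.67-fold at 18 h, while the prostaglandin E synthase Ptges and the prostaglandin D synthase Hpgds fell at both times, by about 1 on the log2 scale at 18 h. In the leukotriene arm Ltc4s fell at 18 h. Over both strains, 3 of the 8 tested enzymes passed the test at 4 h (limma, adjusted p below 0.05), 1 higher and 2 lower, where 6.72% of all 18427 tested genes did so, 2.91% higher and 3.81% lower. At 18 h 4 of 8 passed, 1 higher and 3 lower, against 9.36% of all genes, 3.48% higher and 5.88% lower. With normexp background correction the passing enzymes were 1 higher and 0 lower at 4 h, and 2 higher and 1 lower at 18 h. Of all 18427 genes, 102 were then called higher and 43 lower at 4 h, and 259 higher and 383 lower at 18 h. The median log2 change of the 8 was -0.19 at 4 h and -0.49 at 18 h, against 0.01 and 0 for all genes. Alox15 and Ptgs2 were not tested, because no group had both arrays well above background, while the other 8 were well above it on all 12 arrays.

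The promoters of the 4 enzymes that passed with IL-4 and of Tbxas1, where the palindrome was found, are shown so that their proximal sequence can be read beside the values. RefSeq promoters of 300 bases (build GRCm38.p6, 250 bases before to 50 after the gene start, gene strand, 5′ to 3′) were found for 8 of the 10 genes. Capitals mark the spaced palindrome of TTC, any 4 bases and GAA, the form bound by STAT6, the transcription factor that IL-4 activates, and GAGGAA or its reverse complement TTCCTC, the core recognised by ETS factors such as the macrophage regulator Spi1. The windows are Ptgs1 at chr2:36230176-36230475 on the plus strand, Ptges at chr2:30903248-30903547 on the minus strand, Hpgds at chr6:65144681-65144980 on the minus strand, Ltc4s at chr11:50238483-50238782 on the minus strand and Tbxas1 at chr6:38918736-38919035 on the plus strand.
Ptgs1: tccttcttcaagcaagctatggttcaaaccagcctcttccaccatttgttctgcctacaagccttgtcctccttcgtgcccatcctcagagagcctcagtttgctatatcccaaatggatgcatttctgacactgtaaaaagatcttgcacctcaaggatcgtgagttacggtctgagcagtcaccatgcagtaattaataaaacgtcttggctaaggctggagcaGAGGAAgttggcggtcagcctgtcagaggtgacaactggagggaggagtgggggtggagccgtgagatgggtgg
Ptges: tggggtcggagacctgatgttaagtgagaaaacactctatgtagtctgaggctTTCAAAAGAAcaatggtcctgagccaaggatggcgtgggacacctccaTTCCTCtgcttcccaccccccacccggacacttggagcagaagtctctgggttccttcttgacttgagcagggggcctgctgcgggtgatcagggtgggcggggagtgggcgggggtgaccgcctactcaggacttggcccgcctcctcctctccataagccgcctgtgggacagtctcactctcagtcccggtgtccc
Hpgds: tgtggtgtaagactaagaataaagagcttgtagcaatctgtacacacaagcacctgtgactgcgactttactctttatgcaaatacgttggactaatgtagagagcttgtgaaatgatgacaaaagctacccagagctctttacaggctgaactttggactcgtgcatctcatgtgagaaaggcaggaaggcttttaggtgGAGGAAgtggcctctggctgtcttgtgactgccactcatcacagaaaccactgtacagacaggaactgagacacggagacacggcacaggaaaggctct
Ltc4s: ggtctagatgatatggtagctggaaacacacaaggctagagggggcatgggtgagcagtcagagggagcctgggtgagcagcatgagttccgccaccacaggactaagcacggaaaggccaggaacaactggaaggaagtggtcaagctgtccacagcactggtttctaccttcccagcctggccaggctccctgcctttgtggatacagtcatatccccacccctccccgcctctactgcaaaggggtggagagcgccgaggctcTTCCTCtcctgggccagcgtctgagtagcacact
Tbxas1: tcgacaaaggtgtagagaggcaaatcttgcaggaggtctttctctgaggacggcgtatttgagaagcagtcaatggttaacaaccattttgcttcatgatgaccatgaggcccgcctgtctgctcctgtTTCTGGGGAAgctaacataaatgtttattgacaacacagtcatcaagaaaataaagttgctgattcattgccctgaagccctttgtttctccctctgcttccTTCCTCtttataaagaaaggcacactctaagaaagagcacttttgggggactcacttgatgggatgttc
The palindrome was found in Ptges, as TTCAAAAGAA starting 197 bases before the start, and in Tbxas1, as TTCTGGGGAA starting 121 bases before it. Of all 32851 promoters in the table, 6.95% held it. It was not among the letters of the Ptgs1, Hpgds or Ltc4s windows. The GAGGAA core, on either strand, was found in all 8 promoters, those of Alox5, Lta4h and Ptgs2 included, and in 28.3% of all promoters. In Ptgs1 it started 24 bases before the start and in Hpgds 49 bases before it. The motifs do not overlap in these windows, and a match is a description of the letters only. The part of these motifs in the changes was not tested.

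**Figure D1:**
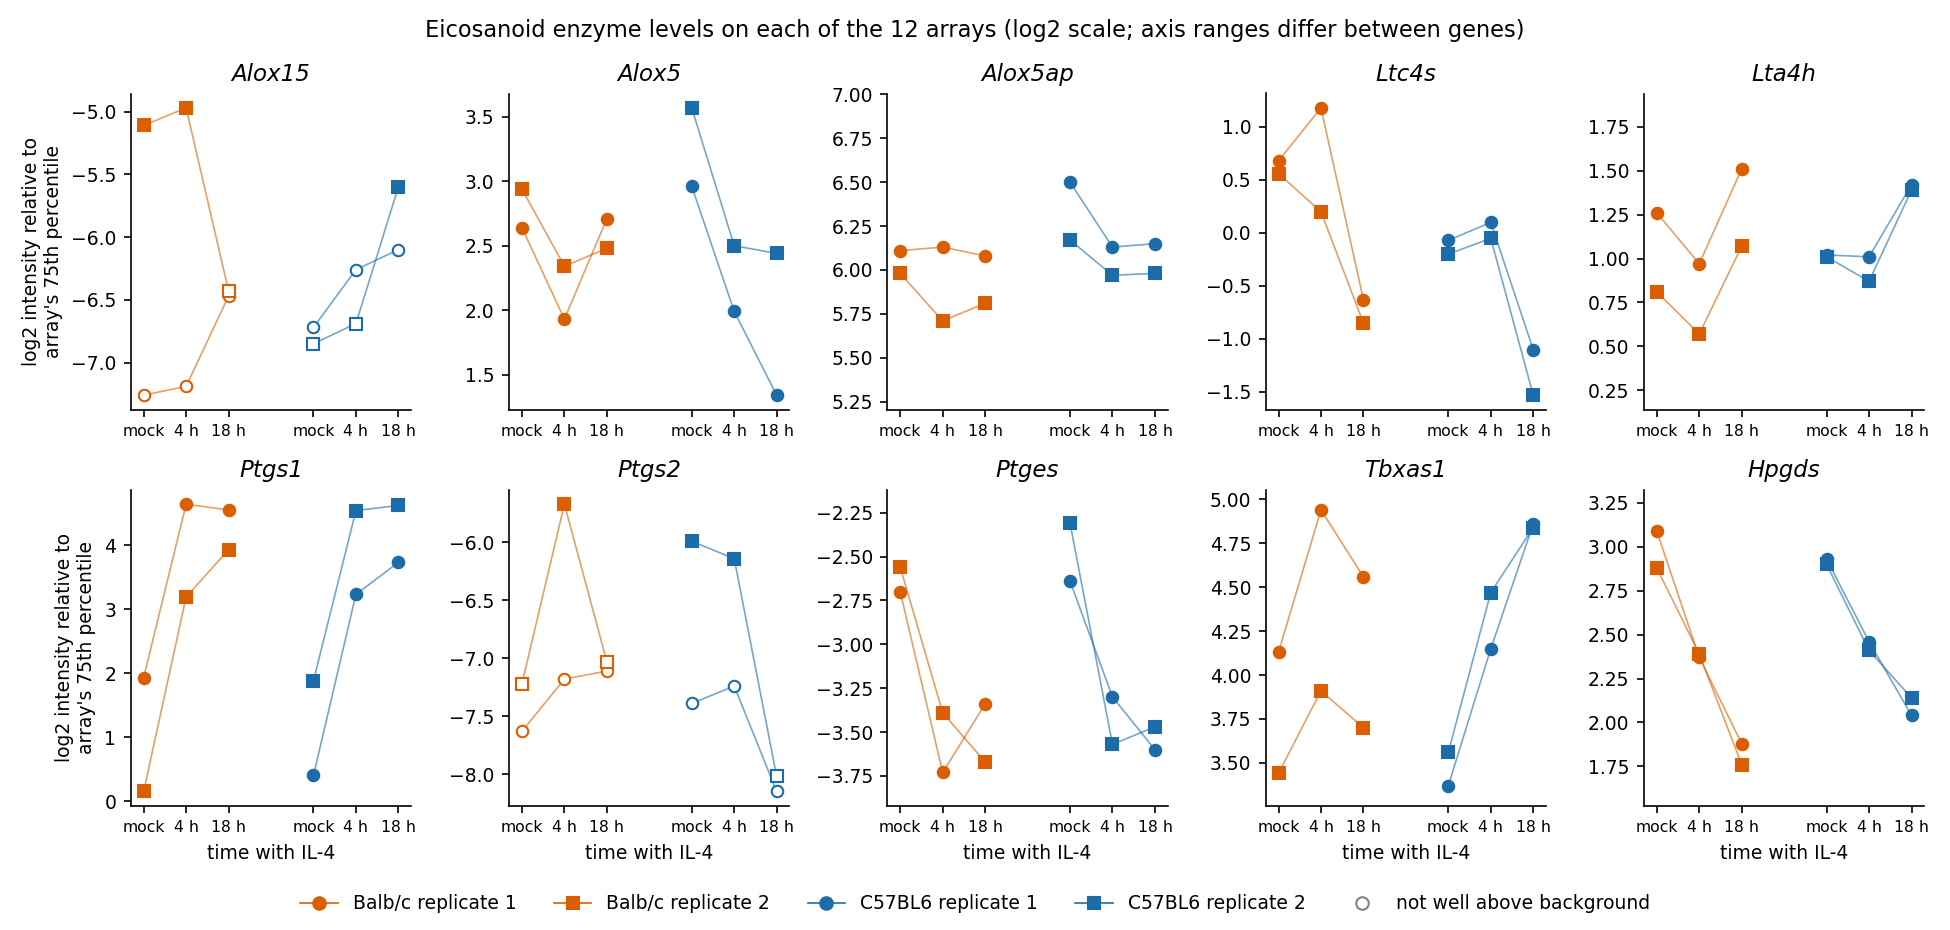
Log2 intensity of each of the 10 enzymes relative to the array's 75th percentile (y axis) on the 12 arrays, by time with IL-4 (x axis), Balb/c left and C57BL6 right in each panel. Lines join arrays of the same strain and replicate number, and open symbols were not well above background. Ptgs1 is higher on every IL-4 array than on any mock array, Ptges and Hpgds are lower on every IL-4 array, and Alox15 and Ptgs2 are mostly open symbols.

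Ptgs1 encodes cyclooxygenase-1, which converts arachidonic acid to prostaglandin H2. The log2 level in Balb/c was 1.93 and 0.15 in mock, 4.64 and 3.19 at 4 h and 4.55 and 3.93 at 18 h. The C57BL6 arrays gave 0.40 and 1.88 in mock, 3.23 and 4.54 at 4 h and 3.73 and 4.62 at 18 h. All 8 IL-4 arrays lay above all 4 mock arrays, and within a strain the same replicate number was the lower one under every condition. Over both strains the log2 change was 2.81 ± 0.57 at 4 h (SE, 7-fold, adjusted p = 0.0255) and 3.12 ± 0.57 at 18 h (8.67-fold, adjusted p = 0.0123). The gain within a replicate number ran from 2.66 to 3.04 at 4 h and from 2.62 to 3.78 at 18 h, higher in 4 of 4 pairs each time. With the replicate number as a block within strain, the SE was 0.21 and the adjusted p 0.00121 at 4 h and 0.000532 at 18 h. Over all 20 other settings the log2 change at 4 h stayed between 2.36 and 3.25 and 15 settings kept the call (adjusted p 0.00121 to 0.144). The call at 4 h was lost without Balb/c IL-4 4 h replicate 1 (2.45), Balb/c mock replicate 2 (2.36), C57BL6 mock replicate 1 (2.44) or C57BL6 IL-4 4 h replicate 2 (2.48). At 18 h it was lost without C57BL6 IL-4 18 h replicate 2 (2.89, adjusted p = 0.0554; 18 of 20 settings kept it, adjusted p 0.000532 to 0.0978). Without the 4 arrays of slide 2, which leaves single arrays in some groups, the change was 3.13 at 4 h and 2.9 at 18 h, and both calls were lost.

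In the separate strains the Ptgs1 change was of like size but did not pass the unblocked test. It was 2.87 at 4 h and 3.2 at 18 h in Balb/c (adjusted p = 0.183 and 0.0838), and 2.75 and 3.03 in C57BL6 (adjusted p = 0.135 and 0.088), each with an SE of 0.81. All 4 passed with the replicate block, with adjusted p of 0.0105 and 0.00294 in Balb/c and of 0.00592 and 0.00333 in C57BL6. The largest adjusted p among the other settings was 0.527. The strain difference of the change was 0.12 at 4 h (95% interval -2.52 to 2.77) and 0.16 at 18 h (-2.48 to 2.81). The gain between 4 h and 18 h was 0.31 (95% interval -1.02 to 1.63). Platelets are rich in this enzyme, and the summed linear level of the 7 megakaryocyte and platelet markers was 41.3 to 49.4 in Balb/c at 4 h, 49 to 58.7 at 18 h and 55.1 to 57.9 in mock. In C57BL6 it was 37.7 to 49.7 at 4 h, 23.3 to 35 at 18 h and 53.7 to 65.2 in mock. Of the 7 markers 3 were well above background on all 12 arrays, and 1, Gp9, on none. Of the 6 tested markers 1 passed in C57BL6 at 18 h, lower, against 4.29% of all genes. The changes of the 6 there ran from -1.63 to 0.94, with a median of 0.08 where the sum was lower. Over both strains 0 of 6 passed, with a median of 0.02 at 4 h and -0.12 at 18 h. The part of such cells in the Ptgs1 values was not tested.

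Ptgs2, the inducible cyclooxygenase, was near background in all groups. Its 2 probes were each well above background on 3 of 12 arrays, at log2 levels from -8.15 to -5.67. The arrays above background were the replicate 2 arrays of Balb/c at 4 h, C57BL6 mock and C57BL6 at 4 h, for both probes. With no filter on dim probes its log2 change was 0.54 ± 0.43 at 4 h and -0.32 ± 0.43 at 18 h over both strains (adjusted p = 0.755 and 0.832). Neither passed, and values this close to background have no reliable order.

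Ptges, the inducible microsomal prostaglandin E synthase, fell over both strains together. Balb/c arrays gave log2 levels of -2.70 and -2.56 in mock, -3.73 and -3.39 at 4 h and -3.34 and -3.67 at 18 h. C57BL6 arrays gave -2.64 and -2.31 in mock, -3.30 and -3.57 at 4 h and -3.60 and -3.47 at 18 h. Every IL-4 array lay below every mock array. The change over both strains was -0.95 ± 0.15 at 4 h (1.93-fold lower, adjusted p = 0.00783) and -0.97 ± 0.15 at 18 h (1.96-fold lower, adjusted p = 0.00496). The difference between 18 h and 4 h was -0.02 (95% interval -0.36 to 0.32). All 4 pairs were lower with IL-4 at each time. Both calls held when any 1 array was left out. They were lost with normexp background correction, at -0.5 at 4 h and -1.52 at 18 h (adjusted p = 1 and 0.0905), and without slide 2, at -1.18 and -0.97 (adjusted p = 0.103 and 0.0821). Over all 20 other settings the adjusted p ran from 0.0068 to 1 at 4 h and from 0.005 to 0.0905 at 18 h. Within C57BL6 alone it fell by 0.96 at 4 h and by 1.06 at 18 h (adjusted p = 0.0492 and 0.0278, other settings up to 0.662 and 0.188). At 4 h that call was lost without any 1 array other than the 2 Balb/c 4 h arrays (-1.13 to -0.8), and at 18 h without any 1 of the 6 C57BL6 arrays (-1.23 to -0.9). In Balb/c alone the log2 change was -0.93 and -0.87 (adjusted p = 0.0908 and 0.0644), and that at 18 h passed with the replicate block (adjusted p = 0.0455; other settings up to 0.491).

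Hpgds, the hematopoietic prostaglandin D synthase, fell in steps. Its log2 level in Balb/c was 3.09 and 2.88 in mock, 2.37 and 2.39 at 4 h and 1.88 and 1.76 at 18 h. C57BL6 arrays held 2.93 and 2.90 in mock, 2.46 and 2.41 at 4 h and 2.04 and 2.14 at 18 h. The conditions did not overlap across the 2 strains. The change over both strains was -0.54 ± 0.10 at 4 h (1.46-fold lower, adjusted p = 0.0165) and -1 ± 0.1 at 18 h (2-fold lower, adjusted p = 0.000707). Between 4 h and 18 h it fell by a further 0.45 (adjusted p = 0.0492), a call that was lost without any 1 of the 12 arrays (adjusted p 0.0527 to 0.185) and kept in 2 of 19 other settings. At 18 h the fall was 1.17 in Balb/c and 0.83 in C57BL6 (adjusted p = 0.00387 and 0.0168), and the strain difference of -0.34 had a 95% interval from -0.8 to 0.12. The C57BL6 call was lost without any 1 of the 4 C57BL6 mock and 18 h arrays (-0.88 to -0.77), with normexp and with no filter. The 18 h call over both strains held without any 1 array. It was lost with normexp correction (-0.67, adjusted p = 0.0805) and without slide 2 (-0.96, adjusted p = 0.0865), among 20 settings with adjusted p from 0.00062. The 4 h call was lost without C57BL6 IL-4 4 h replicate 1 (-0.56), C57BL6 IL-4 4 h replicate 2 (-0.53) or C57BL6 mock replicate 2 (-0.55), with no filter on dim probes (-0.54), with normexp (-0.41) and without slide 2 (-0.56), with adjusted p up to 0.582. With the replicate block it also passed in each strain alone at 4 h, at -0.61 in Balb/c and -0.48 in C57BL6 (adjusted p = 0.0291 and 0.0306; other settings up to 1 and 0.662).

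Tbxas1, the thromboxane synthase, was higher with IL-4 in all 4 pairs at both times, but passed only under some settings. Levels in Balb/c were 4.13 and 3.44 in mock, 4.94 and 3.91 at 4 h and 4.56 and 3.70 at 18 h. In C57BL6 they were 3.37 and 3.56 in mock, 4.15 and 4.47 at 4 h and 4.86 and 4.84 at 18 h. The groups overlapped in Balb/c, where replicate 1 was higher than replicate 2 throughout, and not in C57BL6. Over both strains the change was 0.74 ± 0.29 at 4 h and 0.87 ± 0.29 at 18 h (adjusted p = 0.199 and 0.116). With the replicate block the adjusted p was 0.00461 at 4 h and 0.00213 at 18 h. With slide as a block the changes were 0.98 and 1.04 (adjusted p = 0.0252 and 0.0195), and normexp gave 1.18 at 18 h (adjusted p = 0.0436). The other settings reached adjusted p of 0.416 at 4 h and 0.284 at 18 h. In C57BL6 at 18 h it was 1.39 (adjusted p = 0.114, and 0.00284 with the replicate block), against 0.34 in Balb/c (adjusted p = 0.768). The strain difference, -1.04, had a 95% interval from -2.37 to 0.28 (adjusted p = 0.931). With slide as a block the 18 h changes were 1.26 in C57BL6 and 0.82 in Balb/c (limma adjusted p = 0.0493 and 0.176). The strain difference was then -0.44 ± 0.37 (limma adjusted p = 0.743). A second probe gave 0.85 at 4 h and 0.88 at 18 h over both strains, while the third probe was above background on 1 of 12 arrays.

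**Figure D2:**
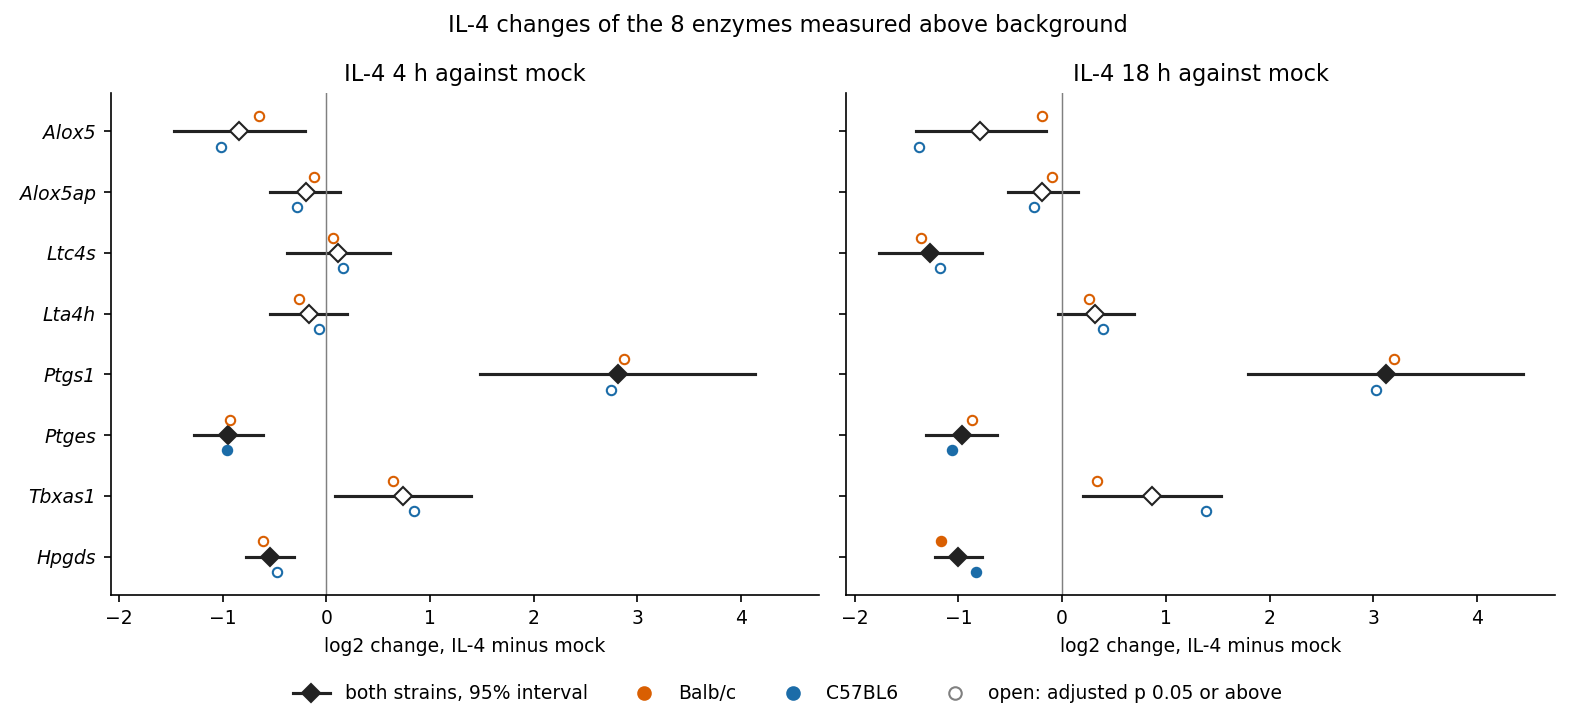
Log2 change with IL-4 (x axis, IL-4 minus mock) of the 8 tested enzymes at 4 h (left) and 18 h (right). Diamonds with bars are the estimate and 95% interval over both strains, circles the separate strains, and filled symbols passed at an adjusted p below 0.05. Ptgs1 lies near 3 at both times, Ptges near -1 at both times, and Hpgds and Ltc4s lie lower at 18 h than at 4 h.

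Ltc4s, which joins glutathione to leukotriene A4 to make leukotriene C4, fell late. Its log2 level in Balb/c was 0.68 and 0.56 in mock, 1.18 and 0.20 at 4 h and -0.63 and -0.85 at 18 h. On the C57BL6 arrays it was -0.07 and -0.20 in mock, 0.10 and -0.05 at 4 h and -1.10 and -1.53 at 18 h. All 4 arrays at 18 h lay below all others, while the 4 h arrays overlapped mock in Balb/c. The change was -1.27 ± 0.22 at 18 h (2.41-fold lower, adjusted p = 0.00861) and 0.11 ± 0.22 at 4 h (adjusted p = 0.825), and the difference of 18 h from 4 h was -1.38 ± 0.22 (adjusted p = 0.0134). The 18 h call held without any 1 array and was lost only without slide 2 (-1.18, adjusted p = 0.0761) among the 20 other settings (adjusted p from 0.00162). The later step was lost without C57BL6 IL-4 4 h replicate 1 (-1.35, adjusted p = 0.0655), C57BL6 IL-4 4 h replicate 2 (-1.42, adjusted p = 0.054) or C57BL6 IL-4 18 h replicate 2 (-1.28, adjusted p = 0.066), and kept in 16 of 19 settings (adjusted p from 0.00406). At 18 h the change was -1.36 in Balb/c and -1.18 in C57BL6 (adjusted p = 0.0527 and 0.0778), and both passed with the replicate block (adjusted p = 0.0167 and 0.0227). They passed also without Balb/c IL-4 4 h replicate 1 or 2 (adjusted p = 0.0107 in Balb/c and 0.0176 in C57BL6), and in Balb/c with quantile normalization (adjusted p = 0.0491), and the largest adjusted p among the other settings was 0.276 and 0.368. Mast cells and basophils are known for this enzyme. The summed linear level of the 11 mast cell and basophil markers was 0.316 to 0.429 at 18 h and 0.486 to 0.742 in mock in Balb/c, and 0.438 to 0.531 at 18 h and 0.619 to 0.91 in mock in C57BL6. Of the 7 tested markers only Hdc passed at 18 h (-1.82 ± 0.23, adjusted p = 0.00225). The other 6 had changes of -0.15 to 1.47, and the median of the 7 was 0.25, opposite in sign to the sum. Of the 11 markers 3 were well above background on all 12 arrays, and 3, Tpsab1, Mcpt8 and Ms4a2, on none. The part of such cells in the result was not tested.

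Alox5, the 5-lipoxygenase itself, was lower on all 4 C57BL6 IL-4 arrays than on C57BL6 mock arrays, but did not pass the unblocked test on all 12 arrays. Its log2 level in Balb/c was 2.64 and 2.94 in mock, 1.93 and 2.34 at 4 h and 2.71 and 2.48 at 18 h. The C57BL6 levels were 2.96 and 3.57 in mock, 1.99 and 2.50 at 4 h and 1.34 and 2.44 at 18 h. At 4 h every IL-4 array lay below every mock array, and at 18 h the groups overlapped in Balb/c only. Over both strains the change was -0.84 ± 0.27 at 4 h and -0.79 ± 0.27 at 18 h (adjusted p = 0.127 and 0.132), and in C57BL6 at 18 h it was -1.38 ± 0.39 (adjusted p = 0.1). With the replicate block the adjusted p was 0.0138 and 0.0153 over both strains, and 0.0297 at 4 h and 0.0122 at 18 h in C57BL6, where other settings ran up to 0.713. The 18 h change also passed without C57BL6 IL-4 18 h replicate 2 (-1.06, adjusted p = 0.0485). In Balb/c at 18 h it was -0.19 (95% interval -1.08 to 0.7), and the strain difference at 18 h was 1.18 ± 0.55 (95% interval -0.07 to 2.44, limma adjusted p = 0.931). Its 2 other probes gave -0.78 and -0.6 at 4 h and -0.77 and -0.62 at 18 h over both strains.

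Alox5ap, the membrane protein that hands arachidonic acid to 5-lipoxygenase, stayed within a narrow range. Its log2 level ran from 5.71 to 6.13 in Balb/c and from 5.97 to 6.50 in C57BL6 over all conditions. The change over both strains was -0.20 at 4 h (95% interval -0.54 to 0.13) and -0.19 at 18 h (-0.52 to 0.15). Lta4h, the hydrolase that makes leukotriene B4, did not pass the unblocked test. Its log2 level in Balb/c was 1.26 and 0.81 in mock, 0.97 and 0.57 at 4 h and 1.51 and 1.07 at 18 h. In C57BL6 macrophages it was 1.02 and 1.01 in mock, 1.01 and 0.87 at 4 h and 1.42 and 1.39 at 18 h. Its change was -0.17 at 4 h (95% interval -0.54 to 0.2) and 0.32 at 18 h (-0.04 to 0.69, adjusted p = 0.296), and 18 h exceeded 4 h by 0.49 (adjusted p = 0.155). All 4 pairs were higher at 18 h than in mock, by 0.25 to 0.40. With the replicate block the adjusted p was 0.015 for 18 h against mock and 0.00711 for 18 h against 4 h, with other settings up to 0.549 and 0.413, and in C57BL6 at 18 h it was 0.0346.

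Alox15, which encodes the 12/15-lipoxygenase, was close to background with and without IL-4. The Balb/c arrays gave log2 levels of -7.26 and -5.11 in mock, -7.19 and -4.97 at 4 h and -6.47 and -6.43 at 18 h. The C57BL6 arrays gave -6.72 and -6.85 in mock, -6.26 and -6.69 at 4 h and -6.10 and -5.60 at 18 h. The arrays well above background were the replicate 2 arrays of Balb/c mock, Balb/c at 4 h and C57BL6 at 18 h. With no filter on dim probes the change over both strains was 0.21 ± 0.57 at 4 h and 0.33 ± 0.57 at 18 h (adjusted p = 0.931 and 0.832). No IL-4 change was detectable at this signal.

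The strains were then set against each other. In mock cells 0 of 8 passed in limma, where 5.24% of all genes passed. At an unadjusted p below 0.05 there was 1 of 8, against 3618 of 18427 genes. Over all 3 conditions 1 of 8 passed, against 17.6% of all genes, and this was Ltc4s, higher by 0.66 ± 0.18 in Balb/c (mean log2 level 0.19, against -0.47 in C57BL6, adjusted p = 0.0359). That call was lost with slide as a block (0.17, adjusted p = 0.762), with normexp (0.57), with no filter (0.66) and without any 1 of 10 of the 12 arrays, and was kept without either Balb/c 4 h array (values 0.59 to 0.73 over the arrays whose loss ended it). Slide 1 held only Balb/c arrays and slide 3 only C57BL6 arrays, so strain and slide were largely joined. Ptgs1 averaged 3.07 in Balb/c and 3.07 in C57BL6 over all conditions. No enzyme passed for a strain difference of its IL-4 change in limma without the block, with 0 of 8 also at an unadjusted p below 0.05, while over all genes 447 at 4 h and 977 at 18 h did so unadjusted and 0 after adjustment. Under the replicate block 2 of 8 were below an unadjusted p of 0.05 at 18 h. These were Tbxas1 (-1.04 ± 0.18, limma adjusted p = 0.142) and Alox5 (1.18 ± 0.30, limma adjusted p = 0.167). Neither passed after adjustment, and of all genes 0 did so under that block. The unadjusted share of all genes under the block is not given here, so the 2 of 8 cannot be set against it. With slide as a block the differences were -0.44 ± 0.37 for Tbxas1 and 1.42 ± 0.58 for Alox5 (limma adjusted p = 0.743 and 0.554). In Balb/c at 4 h 3 of 8 had an unadjusted limma p below 0.05, against 1864 of 18427 genes. The adjusted counts by strain were 0 of 8 in Balb/c at 4 h (1.43% of all genes), 1 of 8 in Balb/c at 18 h (3.73%), 1 of 8 in C57BL6 at 4 h (3.25%) and 2 of 8 in C57BL6 at 18 h (4.29%). With the replicate block they were 3, 4, 5 and 7, in the same order, where 1348, 2786, 3067 and 3209 of all 18427 genes passed. Over both strains the block gave 5 at 4 h and 7 at 18 h, where 4274 and 4611 of all genes passed. For 18 h against 4 h, 2 of 8 passed (3.73% of all genes).

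The genes that release, redirect, break down and sense eicosanoids were followed through 4 lists of 61 genes, of which 53 were tested. Over both strains 6 of 53 passed at 4 h, 5 higher and 1 lower, where 6.72% of all genes passed. At 18 h 10 of 53 passed, 6 higher and 4 lower, where 9.36% of all genes passed. In the release list 2 of 14 rose at each time, against 2.91% of all genes higher at 4 h and 3.48% at 18 h. Pla2g12a, a secreted phospholipase A2, had log2 levels of 0.80 to 1.23 at 4 h and 0.59 to 1.04 at 18 h, against -0.89 to -0.32 in mock. It rose by 1.60 ± 0.16 at 4 h and by 1.48 ± 0.16 at 18 h (3.02-fold and 2.78-fold, adjusted p = 0.0011 and 0.000922). The 4 h call was lost only without slide 2 (1.74, adjusted p = 0.0788), and the 18 h call held in all 20 other settings (adjusted p up to 0.0465). Within Balb/c the Pla2g12a change was 1.33 at 4 h, a call kept in 6 of 19 other settings (adjusted p up to 0.487), and 1.54 at 18 h, kept in 15 of 19. Within C57BL6 it was 1.86 at 4 h and 1.42 at 18 h, each kept in 16 of 19. Most losses came from leaving out 1 array, with changes between 1.16 and 1.87. Pla2g5, another secreted phospholipase A2, rose by 2.70 ± 0.35 at 18 h (6.51-fold, adjusted p = 0.00231), a call lost with normexp (1.02) and without slide 2 (2.71). Its log2 levels at 4 h, -3.02 to -1.87, overlapped those in mock, -3.73 to -2.36. Within C57BL6 at 18 h Pla2g5 rose by 3.26, a call kept in 15 of 19 other settings, and within Balb/c it did not pass.  Pla2g15, a lysosomal phospholipase, was higher by 1.15 at 4 h (adjusted p = 0.0483), a call that held in 7 of 20 other settings and was lost without any 1 array except Balb/c mock replicate 1 and Balb/c IL-4 4 h replicate 2 (0.91 to 1.17). The cytosolic phospholipase Pla2g4a was at 0.55 in Balb/c and 1.42 in C57BL6 on average and did not pass for the strain difference (-0.87, adjusted p = 0.19).

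Among 14 other lipoxygenases and synthases 1 passed at 4 h and 2 at 18 h, shares near the 6.72% and 9.36% of all genes. Alox8 was higher by 2.42 at 4 h (5.37-fold, adjusted p = 0.00206), with 4 of 4 IL-4 arrays and 2 of 4 mock arrays above background, and lower by 1.73 at 18 h than at 4 h (adjusted p = 0.0153, lost without any 1 of the 4 C57BL6 IL-4 arrays, at -1.77 to -1.69). This gene sat close to background and the 4 h change was 0.23 with normexp. Ptges2, a membrane-associated prostaglandin E synthase, rose by 0.72 ± 0.14 at 18 h (adjusted p = 0.0132), opposite in sign to Ptges. Its call was lost without Balb/c IL-4 18 h replicate 2 (0.7), C57BL6 IL-4 18 h replicate 1 (0.67) or slide 2 (0.79). Mgst3, a relative of Ltc4s, fell by 0.74 ± 0.11 at 18 h (adjusted p = 0.00532), lost with normexp (-0.47) and without slide 2 (-0.71). Of 12 breakdown and transport genes 4 had an unadjusted limma p below 0.05 at 4 h, against 3664 of all 18427 genes. After adjustment 0 passed at 4 h and 1 at 18 h, against 6.72% and 9.36% of all genes. This was Hpgd, the first enzyme of prostaglandin breakdown, lower by 1.53 at 18 h (adjusted p = 0.0113) with 2 of 4 IL-4 and 3 of 4 mock arrays above background and overlapping groups. That call was lost without C57BL6 IL-4 18 h replicate 1 (-1.48), with normexp (-2.01) and without slide 2 (-1.44).

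**Figure D3:**
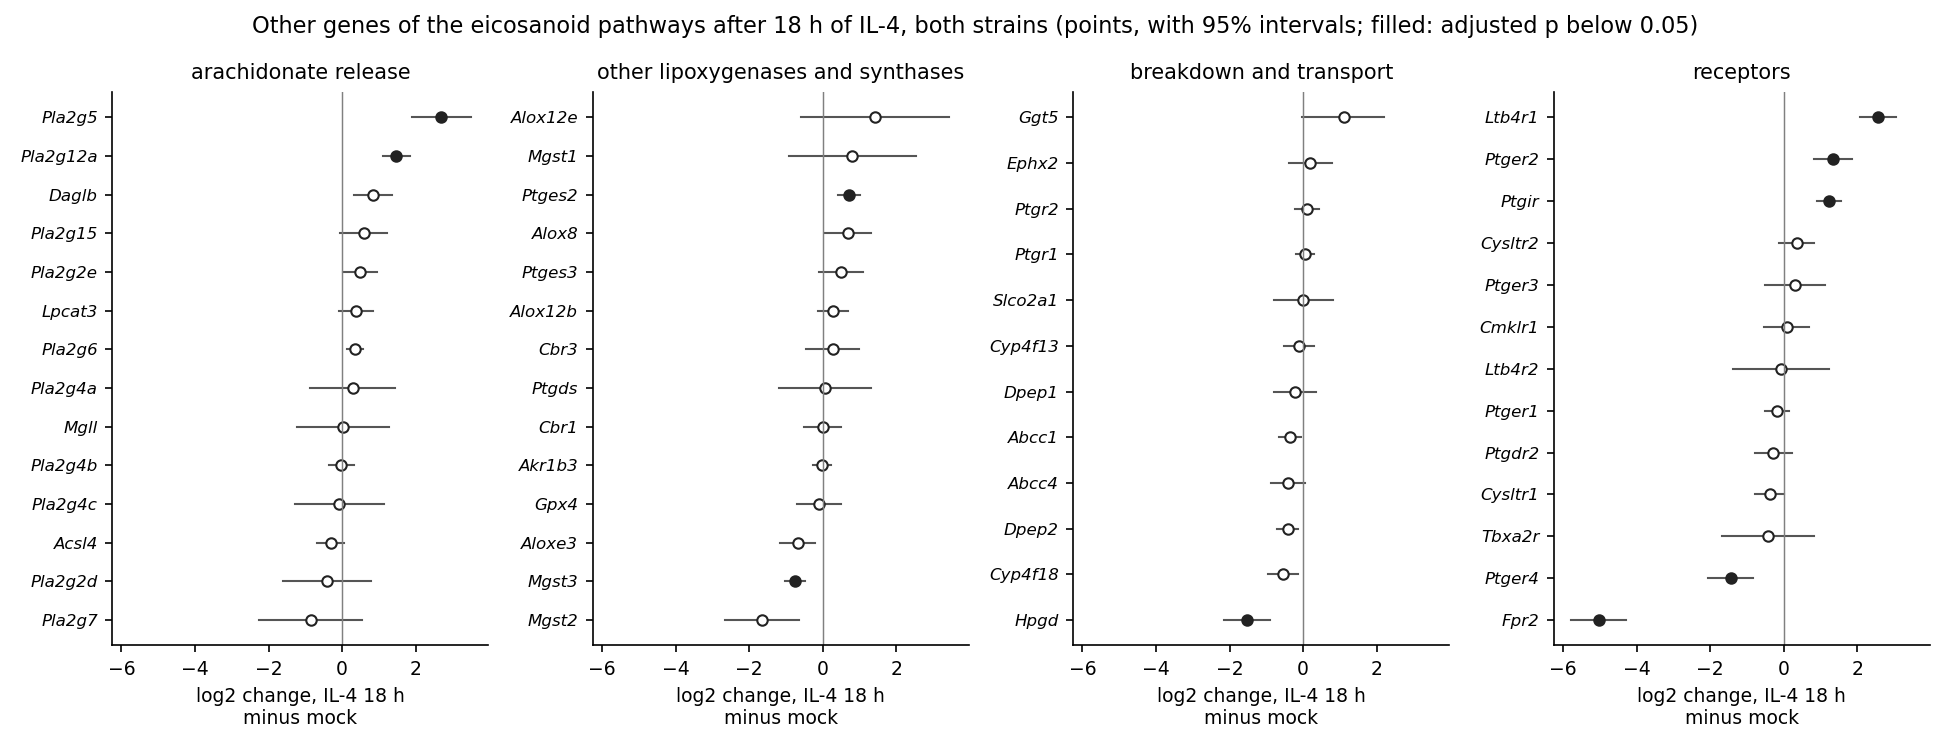
Log2 change after 18 h of IL-4 (x axis, IL-4 minus mock, both strains) of the tested genes of 4 lists, 1 panel a list. Points are estimates with 95% intervals, and filled points passed at an adjusted p below 0.05. The receptor panel holds 5 filled points, from Fpr2 near -5 to Ltb4r1 near 2.6, and the breakdown panel 1.

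Of 13 tested receptors 3 passed at 4 h, 2 higher and 1 lower, and 5 at 18 h, 3 higher and 2 lower, against 6.72% and 9.36% of all genes. Ltb4r1, the high-affinity leukotriene B4 receptor, had log2 levels of 1.18 to 2.27 at 4 h and 2.53 to 3.01 at 18 h, against -0.20 to 0.73 in mock. It rose by 1.49 ± 0.21 at 4 h and 2.57 ± 0.21 at 18 h (2.81-fold and 5.92-fold, adjusted p = 0.00555 and 0.00031). The 4 h call was lost without slide 2 (1.51, adjusted p = 0.185). The 18 h call held in all 20 other settings (adjusted p up to 0.037) and in each strain, at 2.4 in Balb/c and 2.73 in C57BL6. Ptgir, the prostacyclin receptor, rose by 0.92 at 4 h and by 1.23 ± 0.14 at 18 h (adjusted p = 0.00783 and 0.00138). The 4 h call of Ptgir was lost with normexp (0.91, adjusted p = 0.0719) and without slide 2 (1.08, adjusted p = 0.119), while the 18 h call was kept in all 20 other settings. Ptger2, a prostaglandin E2 receptor, rose by 1.35 ± 0.22 at 18 h (adjusted p = 0.00735), while Ptger4, another prostaglandin E2 receptor, fell by 1.44 ± 0.26 (adjusted p = 0.0118). The Ptger4 call was lost without C57BL6 mock replicate 2 (-1.35). Without slide 2 neither passed, at 1.53 for Ptger2 and -1.43 for Ptger4, and Ptger2 was lost with normexp too (1.08). Fpr2, a receptor for formyl peptides and lipoxin A4, fell, with a log2 change of -1.85 ± 0.32 at 4 h and -5.03 ± 0.32 at 18 h (adjusted p = 0.0129 and 0.000122), when 1 of 4 arrays was above background, which leaves the size of the 18 h fall uncertain (-5.26 to -3.14 over 20 other settings, all of which kept the call). The 4 h call of Fpr2 was lost with normexp (-0.91, adjusted p = 0.284) and without slide 2 (-1.95, adjusted p = 0.0587). In Balb/c at 18 h neither array was above background for Fpr2, a fall of at least 18.3-fold with the scanner's processed signal only. Over 19 other settings its log2 change there ran from -6.21 to -3.23, the smaller end under that bound. The cysteinyl leukotriene receptor Cysltr1 averaged 1.13 ± 0.24 at 18 h and 1.51 ± 0.23 in mock (SD, n = 4 each) and did not pass. Of the 8 macrophage markers 3 passed at 18 h, all lower, against 5.88% of all genes. They were Cd14, Fcgr1 and Mertk, with log2 changes of -2.76, -1.93 and -1.19 (adjusted p = 0.00219, 0.000436 and 0.0114). The rest did not pass. The median change of the 8 was -0.1 and the highest 0.08. The summed level of all 8 markers was 554 to 627 at 18 h and 769 to 789 in mock in Balb/c, and 537 to 575 at 18 h and 634 to 727 in mock in C57BL6.

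**Figure D4:**
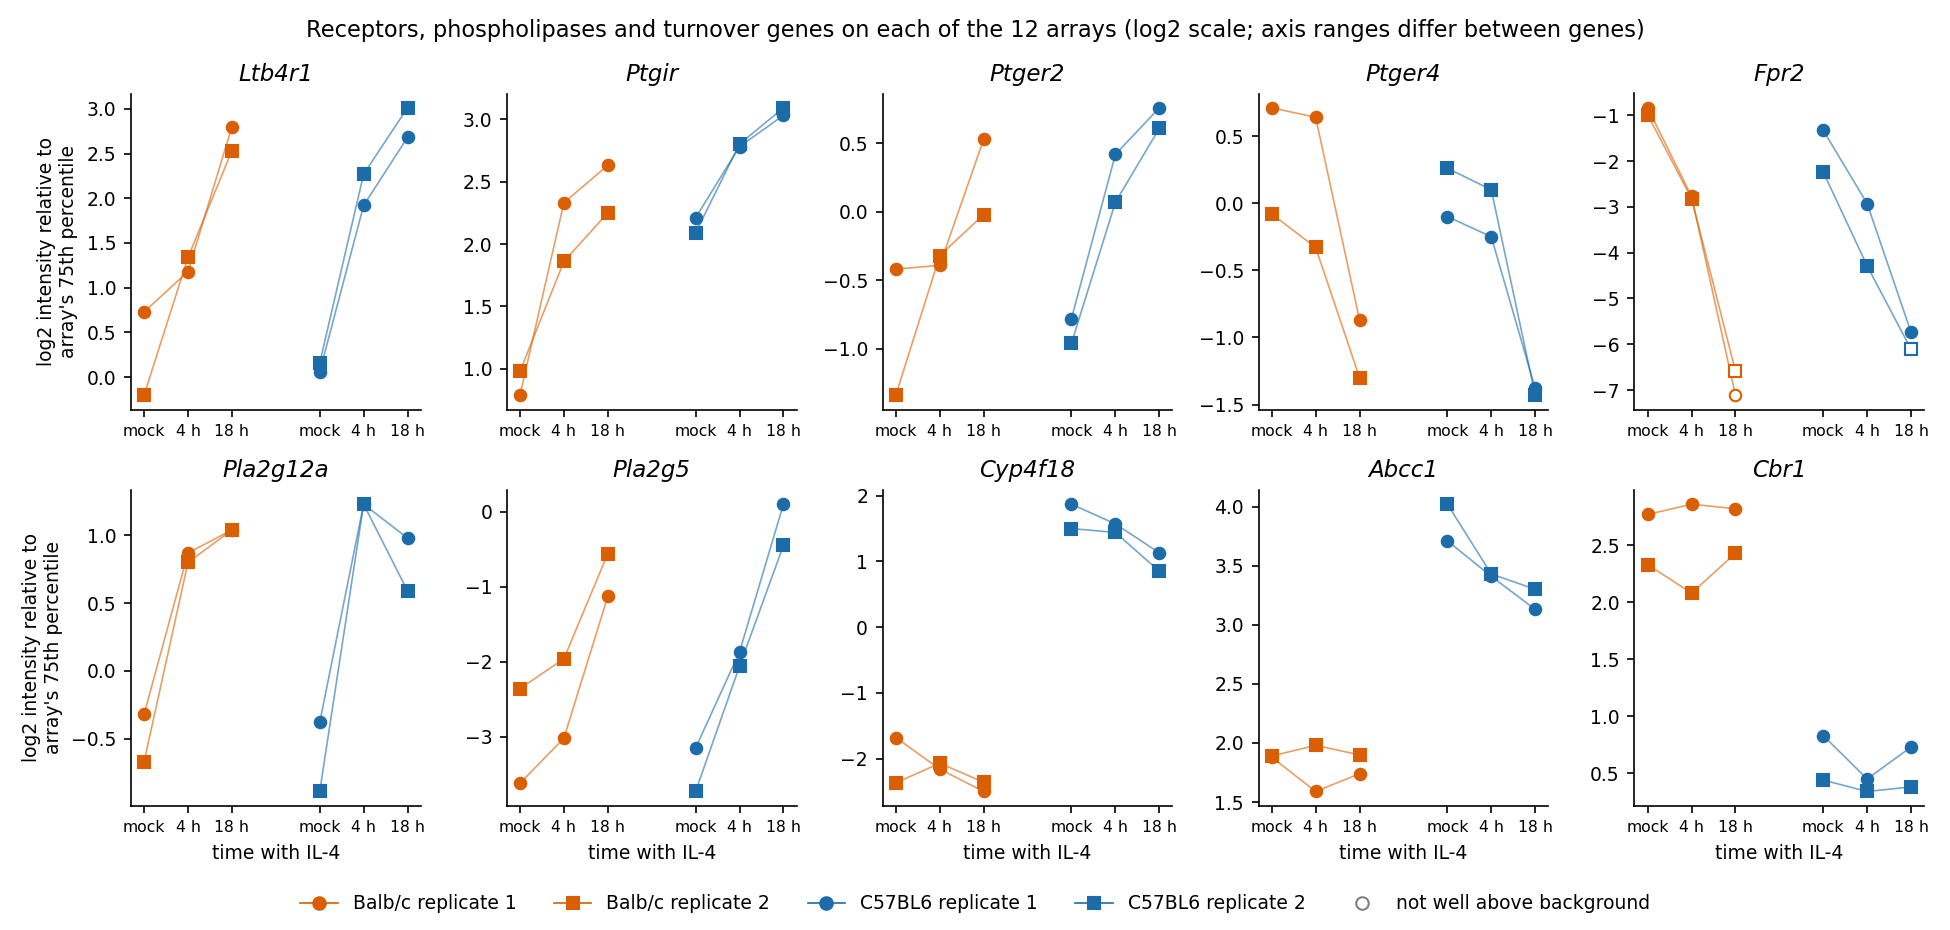
Log2 intensity relative to the array's 75th percentile (y axis) of 10 genes of the 4 lists on the 12 arrays, by time with IL-4 (x axis), Balb/c left and C57BL6 right. Ltb4r1, Ptgir and Pla2g12a are higher with IL-4 in both strains, and Pla2g5 is higher at 18 h. Fpr2 falls to background by 18 h, and Cyp4f18, Abcc1 and Cbr1 separate the strains without overlap.

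Strain differences among these other genes were also tested. Over all 3 conditions 12 of 53 genes passed, 4 higher and 8 lower in Balb/c, against 17.6% of all genes. Cyp4f18, which inactivates leukotriene B4 in mouse neutrophils, had log2 levels of -2.50 to -1.68 in Balb/c and 0.85 to 1.87 in C57BL6 (-3.58 ± 0.14, 12-fold lower in Balb/c, adjusted p = 2.48e-06). Abcc1, an exporter of leukotriene C4, was at 1.59 to 1.98 in Balb/c and 3.13 to 4.02 in C57BL6 (-1.67 ± 0.11, 3.18-fold lower, adjusted p = 3.18e-05). Cbr1, a carbonyl reductase that can reduce prostaglandin E2, was at 2.08 to 2.86 in Balb/c and 0.34 to 0.83 in C57BL6 (2.02 ± 0.18, 4.05-fold higher, adjusted p = 0.000162). The calls of these 3 genes held in all 18 other settings, slide as a block included. Ptgir was lower by 0.86 in Balb/c (adjusted p = 0.00188), and held in all 18 as well. Mgll, the monoacylglycerol lipase, was higher by 2.47 ± 0.44 in Balb/c (adjusted p = 0.0071), and Pla2g2e by 1.06 ± 0.16 (adjusted p = 0.00353), both lost with normexp and with slide as a block. The summed level of 8 neutrophil markers was 4.57 to 10.6 in Balb/c mock and 14.4 to 17.2 in C57BL6 mock, and 3.49 to 4.24 in Balb/c and 10.2 to 13 in C57BL6 at 18 h. Its part in the strain values of Cyp4f18 was not tested.

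For the 4 enzymes called with IL-4, the genes of most similar pattern were ranked by Pearson r over the 12 arrays, which share 6 groups, 3 slides and the IL-4 response. Ptgs1 was closest to Tppp3 (0.954), Clk4 (0.952) and Pdcd1lg2 (0.951). Ptges was closest to Gnptab (0.959), Mterf2 (0.952) and Ncoa7 (0.946). For Hpgds the reported genes are Vav1 (0.965) and Ntpcr (0.964). Ltc4s was closest to Asb13 (0.971), Nfkb2 (0.955) and Dst (0.955). These values are descriptions of 12 arrays and carry no test.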

How the data were processed

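RNA from 12 macrophage cultures was labelled with Cy3 and hybridised to 1-colour Agilent mouse arrays. Scanning software was Agilent Feature Extraction 9.5.1.1, which the submitters' processing notes name. The deposited scanner files hold a background-subtracted processed signal as intensity in linear units, per the file headers. The authors' deposited value table holds a linear ratio per probe, which the values show to be the scaled processed signal divided by the C57BL6 mock mean (SD of the log2 difference at most 0.00448 on any array), and it served as an alternative. The genome build of the probes is not given in the sources used here.

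Control and outlier spots were left out, log2 intensities were averaged over spots of a probe, and each array's 75th percentile was subtracted. A probe was kept if any group had both of its arrays well above background, which held for 27373 of 41174. Their names came from the accession (17629), a current symbol (3978) or an older symbol (1871) in RefSeq annotation, and 3895 kept the file's name. The kept probe with the highest mean stood for each of 18427 genes. R 4.3.3 and limma 3.58.1 gave the fit of group means (6 residual and 2.04 prior degrees of freedom) for 11 comparisons, with Benjamini-Hochberg adjustment over all genes and a threshold of 0.05. Python 3.11.15 scripts with pandas and matplotlib read promoters and drew the plots.

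Replicate numbers were taken to pair cultures within a strain, since the series text describes separate experiments on different littermates and same-numbered arrays deviated together (r 0.15 to 0.65 in all 6 pairs of groups). The r was 0.65 for Balb/c at 4 h and 18 h and 0.62 for C57BL6 mock and 4 h. In these pairs replicates 1 and 2 lay on different slides in both groups, and r in the other pairs was 0.15 to 0.5. Replicate and slide cannot be told apart in these values, and the part of slide in the block's results was not tested. The unblocked fit is the main one, and the block is nested in strain.

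The enzymes, gene lists and tests were chosen with earlier results of these data known. Named in every comparison were the 10 enzymes, up to 3 called genes a side of each other list by size of change, Arg1 and Retnla, and the 3 genes most correlated with each called enzyme, of which 1 is not reported here; others named are list members chosen after their values were seen. Alternatives were normexp background correction (offset 50), quantile normalization, no filter, every kept probe, slide as a block, the replicate block, the deposited ratios and leaving out each array. Leaving out the 4 arrays of slide 2 was added after seeing the data. The number of arrays limits precision.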

Additional observations from a re-analysis of the deposited data

How the results depend on the processing

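Over the 12 fits that left out 1 array each, 998 of the enzyme results kept their direction and side of the threshold, 53 lost a call and 5 gained one. Of the other settings, 559 kept it, 30 lost and 27 gained. No enzyme result changed sign while called. The cause of the changes below was not tested, except that the replicate block removes a shared deviation, that fewer arrays leave fewer degrees of freedom, and that no filter adds dim probes to the adjustment. Signal limits Alox15 and Ptgs2, which could not be tested.

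Counts of called genes moved by over 1.5 times as follows. Normexp gave 3 in Balb/c at 4 h (100% higher, against 174 of 264 in the fit reported above), 143 in Balb/c at 18 h, 25 in C57BL6 at 4 h (88% higher, against 288 of 598), 127 in C57BL6 at 18 h, 145 at 4 h over both strains (70.3% higher, against 536 of 1238), 642 at 18 h, 140 for 18 h against 4 h (22.9% higher), 30 between strains in mock and 500 over all conditions. No filter gave 120, 437, 304 and 463 in the same 4 strain comparisons, 785 at 4 h over both strains, 360 for 18 h against 4 h and 590 between strains in mock. The replicate block gave 1348, 2786, 3067 and 3209 by strain, 4274 and 4611 over both strains and 3109 for 18 h against 4 h. It had no value for the strain comparisons, in which it is nested. Slide as a block gave 502 between strains in mock and 1045 over all conditions, and every kept probe 1538 and 4878. For strain differences of the IL-4 change, quantile normalization gave 2 at 4 h and 9 at 18 h, the deposited ratios 1 and 1, and slide as a block 2 at 18 h. Without slide 2 the counts over both strains were 77 at 4 h (83.1% higher) and 441 at 18 h.

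Counts of called enzymes moved too. With normexp they were 0 in Balb/c at 18 h, C57BL6 at 4 h, C57BL6 at 18 h and between strains over all conditions, 1 at 4 h over both strains and for 18 h against 4 h, and 3 at 18 h over both strains (2 higher, 1 lower, against 1 higher and 3 lower). With no filter they were 0 in C57BL6 at both times and between strains, and 1 for 18 h against 4 h. With the replicate block they were 3 and 4 in Balb/c, 5 and 7 in C57BL6, and 5 and 7 over both strains, and the counts of all genes also rose, as given above. With slide as a block they were 2 in Balb/c at 18 h, 0 in C57BL6 at 4 h, 0 between strains and 1 for 18 h against 4 h, a value that the deposited ratios and every kept probe also gave. The deposited ratios gave 0 in C57BL6 at 4 h, quantile normalization 2 in Balb/c at 18 h, and leaving out slide 2 gave 0 at both times over both strains.

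Leaving out 1 array gave 67 to 194 called genes in Balb/c at 4 h, 314 to 723 at 18 h, 76 to 658 in C57BL6 at 4 h, 206 to 854 at 18 h, 572 to 1090 and 990 to 1857 over both strains at 4 h and 18 h, 266 to 678 for 18 h against 4 h, 449 to 1097 between strains in mock, 2078 to 3763 over all conditions, and 0 to 4 for each strain difference of the change. Called enzymes ran from 1 to 2 in Balb/c at 18 h, 0 to 1 in C57BL6 at 4 h, 0 to 3 at 18 h, 1 to 3 over both strains at 4 h, 4 to 4 at 18 h, 0 to 1 for 18 h against 4 h and 0 to 1 between strains. With normexp 3 dim genes changed sign: Alox8 in C57BL6 at 4 h (-0.42), and between strains Aloxe3 (0.04) and Hpgd (0.07).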
